A study of Mus musculus with 29 samples.

Results

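The Cyp2b family of cytochrome P450 genes was followed in the livers of young and old mice of both sexes, some of them treated with the MDM2 inhibitor HDM201. Members were taken by name from the deposited gene table as the rows Cyp2b9, Cyp2b10, Cyp2b13, Cyp2b19 and Cyp2b23, 5 of the 55421 genes listed. The family was chosen by its measured CPM in females and males of these data, which differ, so the sex differences given here are descriptions and carry no test. Of the 5 genes, 3 (Cyp2b9, Cyp2b10 and Cyp2b13) had a mean CPM (counts scaled to library size) of at least 1 and passed the filter on low counts in every comparison, whereas Cyp2b19 and Cyp2b23 were almost undetected and passed it in none.

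CYP2B proteins are membrane-bound monooxygenases of the endoplasmic reticulum that hydroxylate lipophilic drugs, steroids and fatty acids, with electrons supplied by the P450 oxidoreductase Por. In mouse liver, Cyp2b10 is the textbook target of the constitutive androstane receptor CAR, encoded by Nr1i3, which binds DNA with the retinoid X receptor Rxra and can be activated by phenobarbital-like compounds. Cyp2b9 and Cyp2b13 are known as female-predominant genes, and the sex difference in the pattern of growth hormone secretion is the classic regulator of such genes in rodent liver. Cyp2b19 is best known from keratinocytes of the skin. HDM201 blocks the interaction of p53 with MDM2, the ubiquitin ligase that otherwise holds p53 down.

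The 6 groups were young vehicle females (5 months), old vehicle females (20 months), old HDM201 females (20 months), young vehicle males (5 months), old vehicle males (24 months) and old HDM201 males (24 months), ages as labelled (the study's methods give slightly different ages for young mice and old females). The substrain was C57BL/6J for all old mice but C57BL6/N for the young ones, and age and substrain therefore cannot be told apart in any comparison of old with young mice, and old females and old males also differed in age. HDM201 was given by mouth once a day at 10 mg/kg for 14 days, and controls received the methylcellulose vehicle. The gene Nnt, known to be partly deleted in C57BL/6J, had 2.24 to 4.41 CPM in young and 2.18 to 2.91 in old vehicle females. These females overlapped (log2 fold change −0.34, edgeR FDR 0.232). Young males had 2.40 to 3.69 CPM of Nnt and old vehicle males 1.61 to 2.39, without overlap. The male log2 fold change was −0.59, not called by edgeR but with an unadjusted p under 0.05. No young mouse received HDM201. RNA was sequenced from bulk liver, 1 library per mouse, so fewer cells of a type and less RNA per cell cannot be told apart. Count columns were used for 27 mice (5 young females, 4 young males, 4 old vehicle females, 4 old vehicle males and 5 mice in each HDM201 group), with totals of 16485900 to 23570458 counts, and FPKM columns (fragments scaled to transcript length and library size) for 29 mice. Replicate 1 of the old vehicle males and replicate 5 of the young males have FPKM only. Hepatocyte markers (12 genes) summed to between 124190 and 203847 CPM in each mouse. The 10 keratinocyte markers summed to at most 4.87 CPM in any mouse. Of these, 5 (Krt5, Krt1, Krt15, Flg and Ivl) had no count in any mouse. Others were detected, such as Krt10 and Lor with means of 1.60 and 2.08 CPM in old HDM201 males.

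All members lie in one stretch of chromosome 7 (GRCm38), in which GENCODE places Cyp2b10 at chr7:25897620-25926624, Cyp2b13 at chr7:26061497-26096197, Cyp2b9 at chr7:26173411-26210661, Cyp2b23 at chr7:26665227-26686437 and Cyp2b19 at chr7:26757142-26772630. Cyp2b23 is read from the minus strand and the others from the plus strand. The pseudogenes Cyp2b27-ps and Cyp2b26-ps stand between Cyp2b10 and Cyp2b9. Over their longest transcripts, Cyp2b9 and Cyp2b13 are the most alike of all pairs of members, with 91.9% identity over 1848 aligned bases, and the other pairs have between 82.3% and 88.5%. The promoters are closer still. RefSeq windows from 250 bases before to 50 after the start of transcription were matched for all 5 members (build GRCm38.p6), and Cyp2b9 and Cyp2b13 had the same base at 298 of 300 positions, against 77.2% identity between Cyp2b10 and either of them. The 250 bases before each start are shown because these neighbours went in different directions with age. For Cyp2b9 (chr7:26173159-26173408) and Cyp2b13 (chr7:26061245-26061494) capitals mark the bases at which the pair differs within the window, C48T and T104C, the Cyp2b13 base first and counted from 1 at the 5′ end. For Cyp2b10 (chr7:25897408-25897657), whose RefSeq window runs past the GENCODE gene start at 25897620, capitals mark 2 short motifs. All are on the plus strand, 5′ to 3′.
Cyp2b9: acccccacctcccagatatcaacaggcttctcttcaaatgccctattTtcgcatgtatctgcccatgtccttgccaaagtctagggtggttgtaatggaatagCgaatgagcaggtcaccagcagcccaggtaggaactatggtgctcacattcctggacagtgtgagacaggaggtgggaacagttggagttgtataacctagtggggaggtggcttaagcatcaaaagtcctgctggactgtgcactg
Cyp2b13: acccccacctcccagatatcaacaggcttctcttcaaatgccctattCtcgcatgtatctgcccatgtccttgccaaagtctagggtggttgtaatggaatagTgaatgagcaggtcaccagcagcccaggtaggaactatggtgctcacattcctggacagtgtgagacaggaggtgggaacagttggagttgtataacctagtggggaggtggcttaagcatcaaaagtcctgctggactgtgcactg
Cyp2b10: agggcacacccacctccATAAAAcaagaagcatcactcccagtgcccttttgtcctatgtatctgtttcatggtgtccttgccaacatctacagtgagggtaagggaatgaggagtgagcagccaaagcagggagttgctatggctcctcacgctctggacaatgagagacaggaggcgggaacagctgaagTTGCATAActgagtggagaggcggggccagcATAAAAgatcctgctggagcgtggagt

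4 motifs, chosen after the sequences had been seen, were searched on both strands of these 250-base windows. Distances are counted from the RefSeq start sites. The TATA-like hexamer ATAAAA occurred 2 times before Cyp2b10, starting 233 and 27 bases before its RefSeq start site, and 17.0% of the 32851 mouse promoters of this length hold it. The match at 27 bases lies inside the gene as placed by GENCODE, which starts at 25897620. The C/EBP-like octamer TTGCATAA occurred 58 bases before the Cyp2b10 start and is held by 0.694% of promoters. Both motifs were also found before Cyp2b19 and Cyp2b23, and neither before Cyp2b9 or Cyp2b13. The nuclear receptor half-site AGGTCA (14.0% of promoters) was found 138 bases before both Cyp2b9 and Cyp2b13, also before Cyp2b19 and Cyp2b23, and not before Cyp2b10. The STAT5 motif TTCNNNGAA (7.02% of promoters) had no match in the 5 windows. No match of one motif overlapped that of another, and the matches describe letters, not binding sites.

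Because the members resemble each other, reads can be placed on more than one of them. Of all 50-base windows of the longest transcript, 27.3% in Cyp2b13, 11.2% in Cyp2b9 and 9.69% in Cyp2b10 also occurred in another gene, and with 100-base windows the shares were 9.29%, 1.18% and 0%. Cyp2b9 and Cyp2b13 had 198 windows of 50 bases in common, of 1827 and 1826. The pseudogene Gm45225, which also holds member windows, had 15 counts over 27 mice, but FPKM of 2.69 to 4.69 in the 5 young females and at most 0.178 in any male. Cyp2b27-ps had 72 counts in all, 41 of them in young females. How the count tables treated reads with several placements is not given in the sources used here, and levels of Cyp2b13 in particular are uncertain to that extent.

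Cyp2b9 had the highest CPM of the family in each female. In young females its CPM was 482, 399, 515, 427 and 417, with a mean of 448 ± 48.7 (SD, n = 5). In old vehicle females it was 361, 339, 341 and 284 (331 ± 33.1, n = 4). In old HDM201 females it was 186, 256, 340, 387 and 295 (293 ± 77.3, n = 5). All 4 old vehicle females lay under all young females, and the HDM201 group spread around the old vehicle group on both sides. In young males Cyp2b9 was at 4.77, 1.03, 0 and 0 CPM, from 79, 18, 0 and 0 counts (1.45 ± 2.27, n = 4). In old vehicle males it was 21.9, 9.62, 56.1 and 11.3 CPM (24.7 ± 21.6, n = 4), and in old HDM201 males 16.1, 51.7, 17.1, 1.87 and 11.3 CPM (19.6 ± 18.9, n = 5). Every old vehicle male was above every young male, 1 old HDM201 male fell back into the young range, and no male reached the lowest female.

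Cyp2b10, the CAR target, had the narrowest range of the expressed members. Its CPM in young females was 33.4, 49.1, 33.8, 57.1 and 34.6 (41.6 ± 10.9, n = 5). In old vehicle females it was 63.9, 80.5, 80.4 and 67.5 (73.1 ± 8.64, n = 4), and in old HDM201 females 62.5, 90.1, 43.1, 52.2 and 59.9 (61.6 ± 17.6, n = 5). Old vehicle females were thus all above the young females, and the HDM201 group reached from the young into the old range. Young males had 23.7, 17.0, 17.0 and 10.9 CPM (17.2 ± 5.26, n = 4). Old vehicle males had 5.79, 3.19, 2.87 and 6.90 CPM (4.69 ± 1.97, n = 4) and old HDM201 males 4.51, 9.90, 11.5, 3.89 and 5.83 CPM (7.12 ± 3.38, n = 5). Here the order of the ages was the opposite of that in females, with all old vehicle males under all young males.

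Cyp2b13, the closest relative of Cyp2b9 in sequence, had lower levels than Cyp2b9 in each female. Young females had 315, 238, 301, 380 and 347 CPM (316 ± 53.2, n = 5). Old vehicle females had 90.2, 38.2, 51.4 and 16.7 CPM (49.1 ± 30.9, n = 4), and old HDM201 females had 6.68, 8.31, 37.0, 57.2 and 15.8 CPM (25.0 ± 21.7, n = 5). No old female came near the young ones, and within both old groups the highest mouse was several times above the lowest. None of the 4 young males had a single count, which allows a mean of up to 0.0403 CPM (3 counts over the group; such limits cover counting error only). Old vehicle males had 0.573, 2.14, 6.43 and 4.56 CPM, from 11, 37, 112 and 86 counts (3.43 ± 2.59, n = 4), and old HDM201 males had 2.50, 6.90, 4.73, 0.160 and 3.08 CPM (3.48 ± 2.52, n = 5). Cyp2b13 was thus detected in all 9 old males with counts and in none of the young ones.

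**Figure D1:**
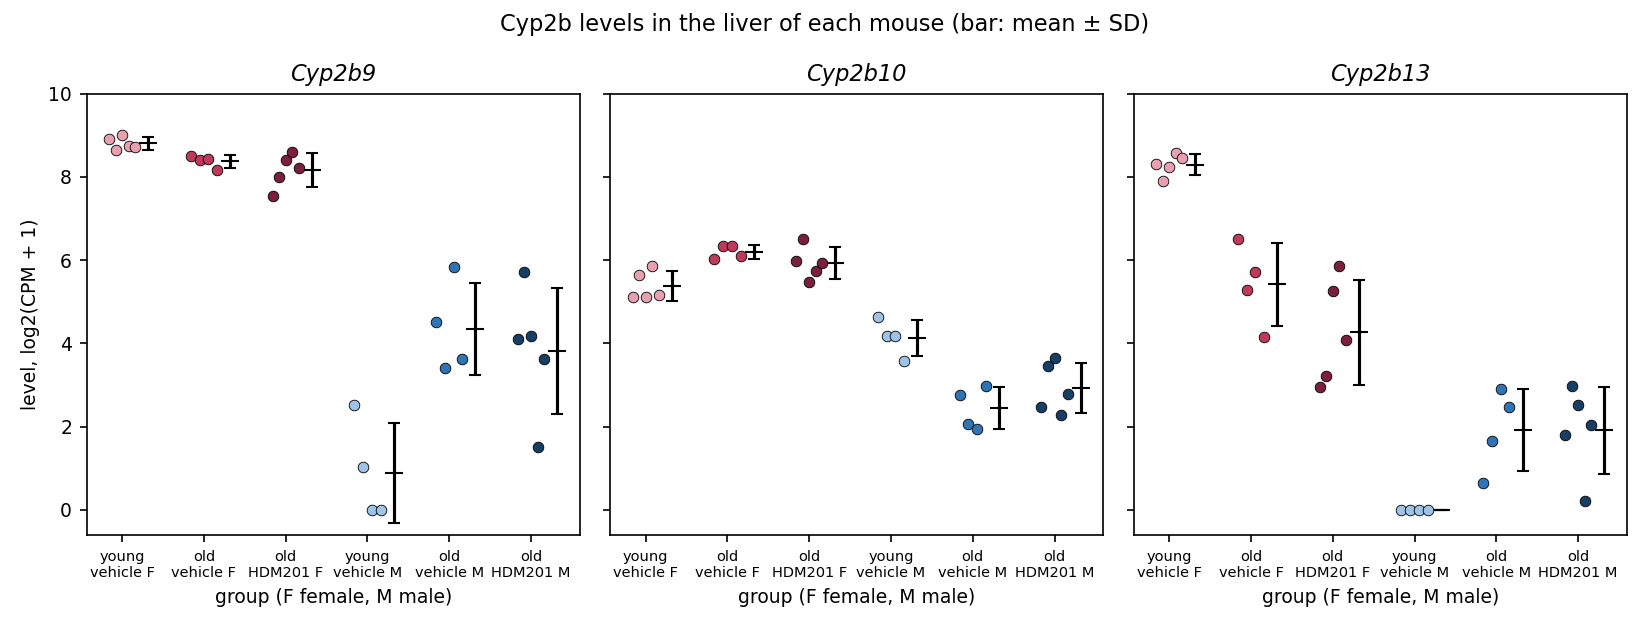
Level of Cyp2b9, Cyp2b10 and Cyp2b13 in each mouse as log2(CPM + 1), by group, with the bar at the right of each group giving the mean ± SD on that scale. Old vehicle females lie below young females for Cyp2b9 and Cyp2b13 and above them for Cyp2b10, and the males show the opposite order in all 3 panels.

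Cyp2b19 had 5 counts in 3 of 27 mice, 4 of them in young females, and an FPKM above 0 in 16 of 29 mice, the highest being 0.412. Cyp2b23 had 2 counts in 2 mice and an FPKM of at most 0.0440. Neither passed the filter, so neither was tested on counts. The FPKM of Cyp2b19 was 0.362, 0.209, 0.211 and 0.321 in old vehicle females, none of which had a count, and 0, 0, 0, 0.109 and 0.0215 in old HDM201 females, which had 1 count in all. These groups did not overlap on the FPKM scale, but the counts do not show the difference.

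The order of group means for Cyp2b9 and Cyp2b13 was young females, old vehicle females, old HDM201 females, then the old male groups, then young males. Old vehicle and old HDM201 females overlapped for both genes, as did old vehicle and old HDM201 males. Old HDM201 males also overlapped with young males for Cyp2b9, and with old HDM201 females for Cyp2b13. For Cyp2b10 the order was old vehicle females, old HDM201 females, young females, young males, old HDM201 males and old vehicle males. Its neighbours overlapped except young females against young males.

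Old vehicle mice were compared with young vehicle mice within each sex. In females Cyp2b13 fell to 0.155 of its young mean, a log2 fold change of −2.67 ± 0.36 (SE), with a false discovery rate (FDR, Benjamini-Hochberg over all genes tested) of 2.65e-04 by the edgeR quasi-likelihood test. Cyp2b9 fell by less, to 0.739 of its young mean (log2 fold change −0.41 ± 0.10, edgeR FDR 0.00788). Cyp2b10 rose 1.76-fold (0.84 ± 0.16, edgeR FDR 0.00197). For each of these genes the 4 old and 5 young females did not overlap. In this comparison 31.8% of 14233 genes passed the same FDR of 0.05 and 25.9% had groups without overlap, so a call by itself was common. The Cyp2b9 call was lost when all 6 groups entered 1 fit (log2 fold change −0.43, FDR 0.618), whereas its log2 fold change stayed between −0.46 and −0.35 as each mouse was left out. Summed over the family, CPM was 806 ± 70.9 in young and 453 ± 61.9 in old vehicle females.

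In males each member moved the other way. Cyp2b10 fell to 0.273 of its young mean (log2 fold change −1.85 ± 0.31, edgeR FDR 0.0140). Cyp2b9 rose 17.0-fold on mean CPM (log2 fold change 4.19 ± 1.00, edgeR FDR 0.0497), a ratio that was 72.1 without young male replicate 1 and 9.84 without old vehicle male replicate 4. Cyp2b13 was at least 84.0-fold higher in old than in young males, taking the young group at its limit of 3 counts (edgeR FDR 0.0247). This bound was 59.1 to 109 as each mouse was left out. Groups of 4 old and 4 young males did not overlap for any of these genes, where 3.69% of 13755 genes passed the FDR and 13.7% had groups without overlap.

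In males the calls of Cyp2b9 and Cyp2b13 depended on the method and on single mice. For Cyp2b9 the FDR was 0.147 with DESeq2, 0.0652 with limma on log2(FPKM + 1) and 0.0692 with the replicate number as a block. It was 0.0767, 0.0542 or 0.151 without replicate 2, 3 or 4 of the old vehicle males and 0.102, 0.101 or 0.104 without replicate 2, 3 or 4 of the young males, with log2 fold changes from 3.37 (without old replicate 4) to 6.28 (without young replicate 1). For Cyp2b13 the FDR was 0.0872 with limma on log2(FPKM + 1), 0.0692 with the block, 0.0559 without old vehicle replicate 4, and 0.0546 or 0.0587 without replicate 3 or 4 of the young males. The Cyp2b10 call held in all alternatives run, with FDR between 3.27e-07 and 0.0488. In the mice with FPKM only, old vehicle male replicate 1 had an FPKM of 1.65 for Cyp2b9, 0.936 for Cyp2b10 and 0.413 for Cyp2b13. Young male replicate 5 had 0.0549 for Cyp2b9, 1.61 for Cyp2b10 and none for Cyp2b13. That Cyp2b10 value lay within the 0.936 to 3.09 of the 5 old vehicle males, so the groups overlapped for Cyp2b10 on the FPKM scale once this mouse was counted. They overlapped for Cyp2b9 as well, since old vehicle male replicate 1 lay below young male replicate 1 (FPKM 2.08), whereas for Cyp2b13 no old male was listed at 0 and every young male was. These overlaps compare FPKM across libraries whose columns sum to between 690769 and 6010507. The mice with FPKM only have no counts against which their scale could be checked. The methods exclude 1 young male for an open wound and suspected infection without saying which. Whether it was young male replicate 5 is not known.

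**Figure D2:**
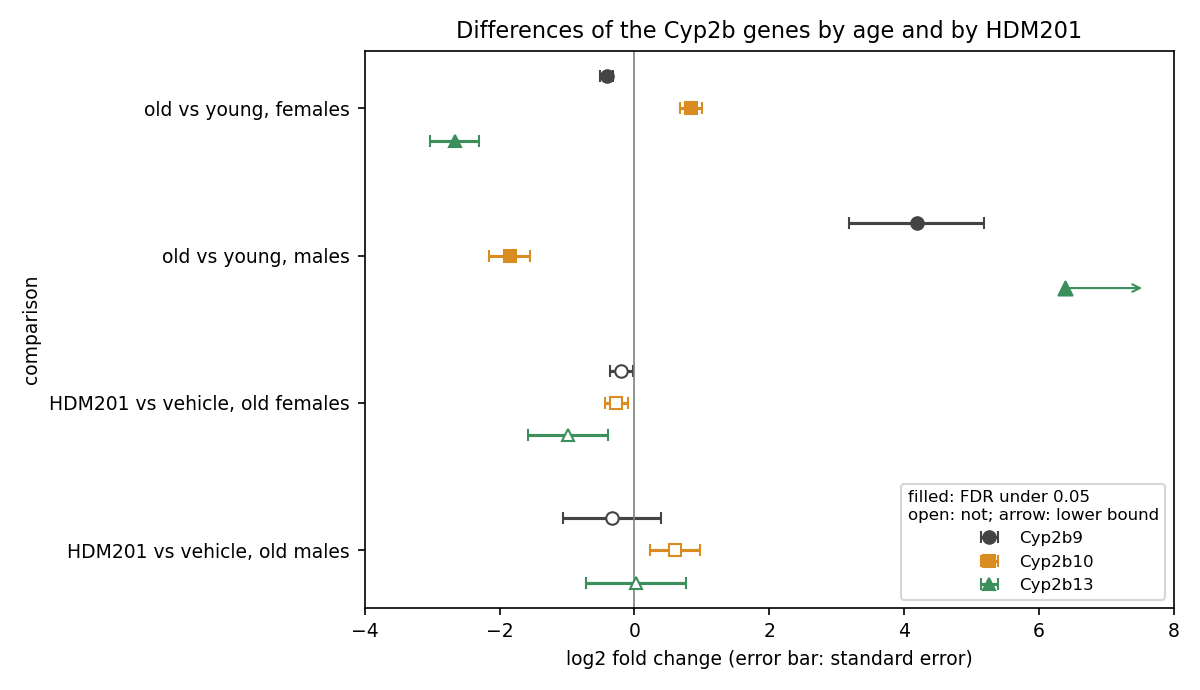
Log2 fold change of Cyp2b9, Cyp2b10 and Cyp2b13 in 4 comparisons, with standard errors as bars; filled symbols passed an FDR of 0.05, and the arrow marks a lower bound for Cyp2b13, which had no count in young males. With age the members lie on opposite sides of 0 in females and males, and no open symbol of the HDM201 comparisons passed the FDR.

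The difference between the sexes in the effect of age was tested as an interaction in a fit of the 4 vehicle groups, which uses the same mice as the sex differences for which the family was chosen. Expressed as the female minus the male log2 fold change, it was 2.70 ± 0.35 for Cyp2b10 (edgeR FDR 0.00112) and −4.59 ± 0.93 for Cyp2b9 (edgeR FDR 0.0141). For Cyp2b13 the edgeR FDR was 0.00158, and on mean CPM, with young males at their limit, the difference was −9.08 or further below 0. In this test 3.92% of 14721 genes passed. The calls held as each mouse was left out, although the Cyp2b9 value ranged from −3.79 without old vehicle male replicate 4 to −6.68 without young male replicate 1. DESeq2 gave no adjusted p for Cyp2b9 here.

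HDM201 was compared with vehicle in old mice only. In old females Cyp2b13 had a log2 fold change of −0.98 ± 0.59 (edgeR FDR 0.355), Cyp2b10 −0.27 ± 0.17 (FDR 0.389) and Cyp2b9 −0.20 ± 0.17 (FDR 0.537). In old males Cyp2b10 had 0.60 ± 0.37 (edgeR FDR 0.521), Cyp2b9 −0.33 ± 0.73 (FDR 0.878) and Cyp2b13 0.02 ± 0.74 (FDR 0.993). None of the 3 genes passed in either sex, 0 had an unadjusted p under 0.05, and 0 were called by DESeq2 or by limma. The rate of calls over all genes was 5.25% of 14445 in females and 0.00709% of 14109 in males. Values larger than their standard errors, such as that of Cyp2b13 in old females, did not pass, so true differences of that size could go uncalled. In males the direction of Cyp2b9 and Cyp2b13 changed when single mice were left out. Cyp2b9 went to 0.45 without old vehicle replicate 4, and Cyp2b13 to between −0.38 and −0.11 without replicate 2 or 3 of either group. The interaction of sex with HDM201 was −0.86 ± 0.42 for Cyp2b10 (edgeR FDR 0.280), −1.01 ± 1.03 for Cyp2b13 (FDR 0.642) and 0.13 ± 0.80 for Cyp2b9 (FDR 0.953), where 0.107% of 14974 genes passed.

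The sex difference itself, for which the family was picked, is described without a test. In young mice mean CPM was 309-fold higher in females for Cyp2b9, 2.42-fold for Cyp2b10 and at least 7827-fold for Cyp2b13. In old vehicle mice the ratios were 13.4, 15.6 and 14.3 in the same order. In old HDM201 mice they were 14.9, 8.64 and 7.19. Single mice moved several of these ratios. Of the 97 counts of Cyp2b9 in young males 79 came from replicate 1, and without that mouse the young ratio was 1307. The bound for Cyp2b13 in young mice was 5505 to 8338 as each mouse was left out. In old vehicle mice without male replicate 4 the ratios were 23.2 for Cyp2b9 and 20.2 for Cyp2b13, and without female replicate 1 that of Cyp2b13 was 10.3. In old HDM201 mice without male replicate 2 that of Cyp2b9 was 25.3, and without female replicate 4 that of Cyp2b13 was 4.88. As any mouse was left out, the female excess in old vehicle mice remained smaller than in young mice for Cyp2b9 and Cyp2b13 and larger for Cyp2b10. Females and males did not overlap except for Cyp2b13 under HDM201, where the lowest female (6.68 CPM) was under the highest male (6.90 CPM). Over all genes tested, 12.8% did not overlap between the sexes in young mice, 23.1% in old vehicle and 13.7% in old HDM201 mice.

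Because FPKM is scaled by length, it gives the share of each gene in the family. In young females Cyp2b9 made up 55.2% ± 4.72 (SD, n = 5), Cyp2b13 39.4% ± 4.50 and Cyp2b10 5.42% ± 1.58 of the summed FPKM. In old vehicle females the shares were 71.6% ± 2.99 for Cyp2b9, 17.5% ± 2.74 for Cyp2b10 and 10.8% ± 5.52 for Cyp2b13 (n = 4), and in old HDM201 females 75.4% ± 4.18, 18.4% ± 7.68 and 6.16% ± 4.07 (n = 5). By group means the second place was held by Cyp2b13 in young and by Cyp2b10 in old females, except that Cyp2b13 was ahead of Cyp2b10 in old vehicle female replicate 1 (18.1% against 13.5%) and in old HDM201 female replicate 4 (11.7% against 11.2%). In young males Cyp2b10 made up 95.0% ± 6.40 (n = 5). In old vehicle males its share was 22.2% ± 10.6 and that of Cyp2b9 65.1% ± 15.4 (n = 5), and in old HDM201 males 33.8% ± 20.8 and 55.5% ± 17.6 (n = 5). The order of the mean shares in both old male groups, Cyp2b9 before Cyp2b10 before Cyp2b13, was that of old females. Exceptions were old vehicle male replicate 4, with 10.0% Cyp2b13 and 4.77% Cyp2b10, and old HDM201 male replicate 4, with 68.1% Cyp2b10 and 28.9% Cyp2b9. The family's summed CPM was 32.8 ± 22.4 in old vehicle and 18.6 ± 7.33 in young males.

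**Figure D3:**
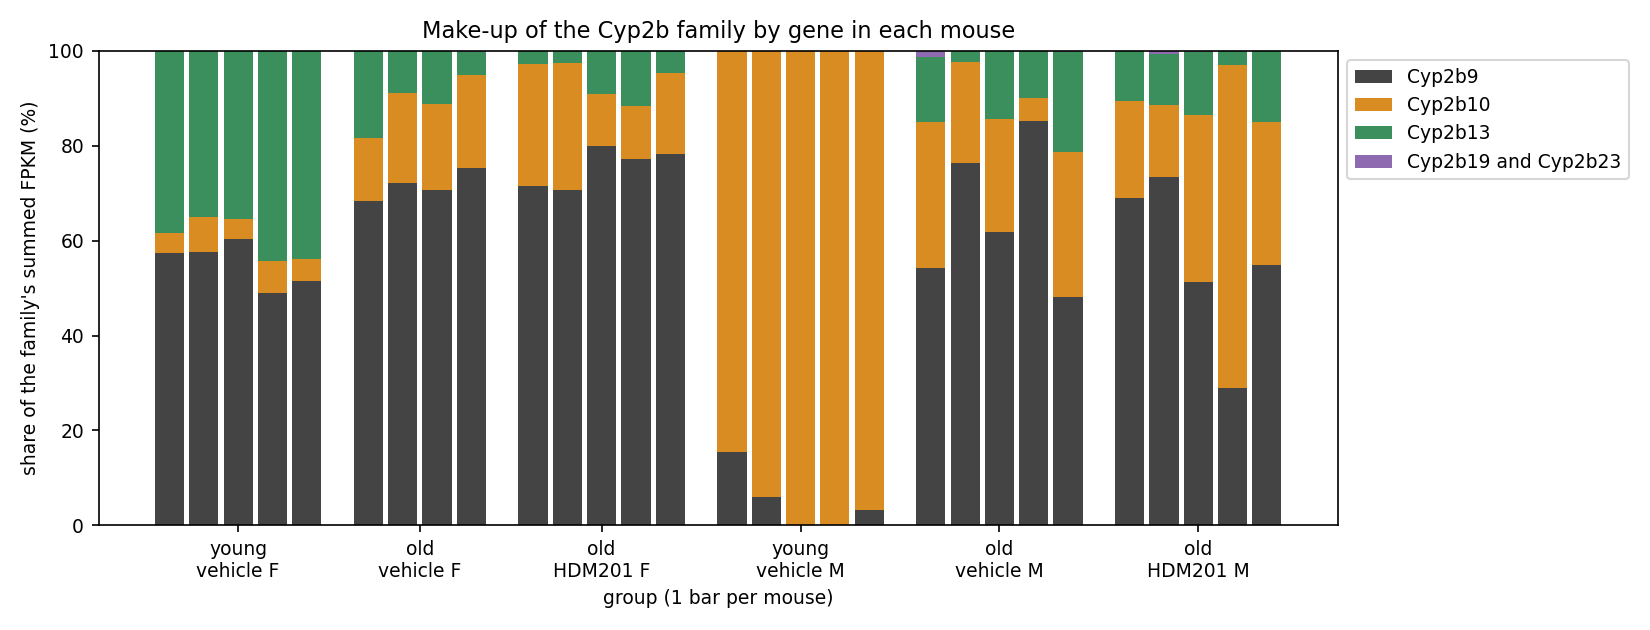
Share of each Cyp2b gene in the family's summed FPKM (%), 1 bar per mouse for 29 mice, by group. Cyp2b10 fills nearly the whole bar in young males (mean 95.0%), and Cyp2b9 takes the largest share in every female (mean 55.2% in young females).

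Within the old mice, Cyp2b9 and Cyp2b13 varied together. Over the 9 old females, HDM201 and vehicle together, Pearson's r of their log2(CPM + 1) was 0.907 (exact permutation p = 1.54e-04, two-sided; adjusted 9.26e-04 over 6 relations), and Spearman's rho was 0.950 (exact permutation p = 3.53e-04; adjusted 0.00212). Without the 2 mice farthest from the median of Cyp2b9, r was 0.903. These relations were computed after the values had been seen. Cyp2b9 and Cyp2b10 had an r of −0.22 and a rho of −0.33 in old females (exact permutation p = 0.568 and 0.385; adjusted 0.573 and 0.578), and Cyp2b10 and Cyp2b13 an r of −0.24 and a rho of −0.12 (exact permutation p = 0.527 and 0.776; adjusted 0.573 and 0.776). In the 9 old males Cyp2b9 and Cyp2b13 had an r of 0.724 (exact permutation p = 0.0268, adjusted 0.0805) and a rho of 0.667 (exact permutation p = 0.0589, adjusted 0.177), which rested on the 2 mice farthest from the median, since r was 0.295 without them. The other pairs in old males had r of 0.222 (Cyp2b9 with Cyp2b10) and 0.360 (Cyp2b10 with Cyp2b13), with adjusted exact permutation p of 0.573 each and, for rho, of 0.776 and 0.539. The pair that varied together is the pair with the near-identical promoters and also the pair with the most transcript windows in common, and the part of misplaced reads in the relation was not tested.

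**Figure D4:**
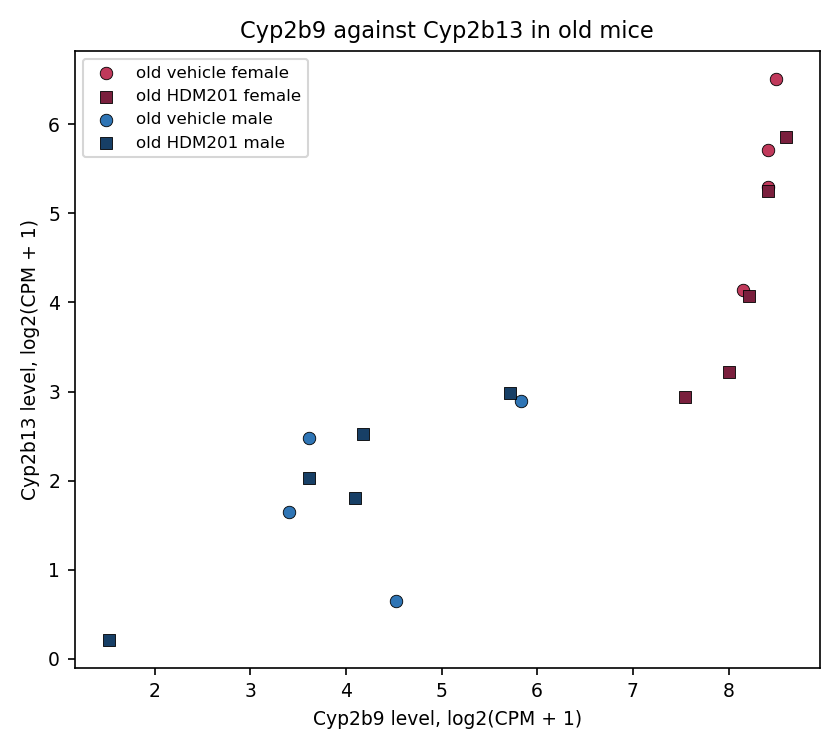
Cyp2b13 against Cyp2b9 in each old mouse, both as log2(CPM + 1), with colour for sex and circles for vehicle, squares for HDM201. In the 9 old females the points rise together (r = 0.907), and in the males less closely (r = 0.724). The lowest male has 1.87 CPM of Cyp2b9 and 0.160 CPM of Cyp2b13. Old vehicle male replicate 4 (56.1 and 6.43 CPM) and old HDM201 male replicate 2 (51.7 and 6.90 CPM) are highest for both genes. Old vehicle male replicate 2 has 21.9 CPM of Cyp2b9 but 0.573 CPM of Cyp2b13.

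The genes most like each member over all 27 mice were ranked by Pearson's r of log2(CPM + 1) among 12770 genes, as a description over mice that differ in sex, age and treatment. Nearest to Cyp2b9 were Gm6135 (r = 0.940), Akr1c20 (0.938), 9030619P08Rik (0.936), Slc22a27 (0.931) and Rdh16f2 (0.915). Nearest to Cyp2b10 were Vldlr, the very low density lipoprotein receptor (0.927), Srgap3 (0.915), Dct (0.914), Eci3 (0.909) and Lratd2 (0.908). Nearest to Cyp2b13 were the sulfotransferase Sult3a1 (0.889), Arrdc2 (0.885), Gm6135 (0.875), Gypc (0.854) and Xist (0.843), the last being the RNA of the inactive X chromosome. Sult3a1 had a mean of 127 CPM in young and 8.05 in old vehicle females and of 0.0890 in young males, and fell in old females with a log2 fold change of −3.96 ± 0.41 (edgeR FDR 5.60e-05). Vldlr followed Cyp2b10, with mean CPM of 10.9 in young and 17.5 in old vehicle females but 3.39 in young and 2.02 in old vehicle males.

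Of 13 genes for CAR, PXR and their partners, 2 rose and 2 fell in old against young females, where 31.8% of all genes passed, and 0 of 13 passed in males by edgeR, with 1 at an unadjusted p under 0.05. Nr1i3 (CAR) had 192 ± 33.8 CPM in young and 161 ± 15.2 in old vehicle females (log2 fold change −0.23, edgeR FDR 0.173), and 92.3 ± 38.8 and 105 ± 25.3 in males (0.20, FDR 0.699). Its level was higher in females than in males of either age (log2 difference 1.05 in young mice, edgeR FDR 0.0136, and 0.61 in old vehicle mice, FDR 0.0247). Nr1i2, which encodes PXR, had a log2 fold change of −0.25 (FDR 0.140) in old females, and Rxra 0.00 (FDR 0.990). Por fell in old females (−0.68 ± 0.23, FDR 0.0408) and Hsp90aa1, the chaperone that holds CAR in the cytoplasm, rose (0.88 ± 0.14, FDR 8.44e-04). Under HDM201 2 of the 13 fell in old females, where 5.25% of all genes passed, Hsp90aa1 (−0.61 ± 0.14, FDR 0.0343) and Hnf4a (−0.27 ± 0.06, FDR 0.0320).

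The list of other CAR-inducible genes held calls in both directions. Of 29 tested in females, 3 rose and 11 fell with age, where 31.8% of all genes passed. Their median log2 fold change was −0.06, against 0.01 over all genes, whereas Cyp2b10 rose. Cyp2c54 fell by 3.08 on the log2 scale (edgeR FDR 6.12e-05) and Cyp2c50 fell by 1.08 (FDR 0.00191), while the transporter Abcc4 rose (1.87 ± 0.23, FDR 1.52e-04) and so did Gadd45b (1.10 ± 0.29, FDR 0.0124). Cyp2c55, a sensitive target of CAR, had −0.34 (FDR 0.408). In males 0 of 28 tested passed by edgeR with age, with 5 at an unadjusted p under 0.05, whereas Cyp2b10 fell. Under HDM201 0 passed by edgeR in either sex, with 4 of 29 in females and 6 of 28 in males at an unadjusted p under 0.05.

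Among the Cyp2 genes around the family on chromosome 7, 7 of 8 were tested in old against young females. Cyp2a22 rose (1.16 ± 0.12, edgeR FDR 7.07e-05) and Cyp2a5 fell (−1.01 ± 0.28, FDR 0.0150), where 31.8% of all genes passed. In males 0 of 6 tested passed by edgeR (1 at an unadjusted p under 0.05), and under HDM201 0 of 7 passed in either sex (4 in females and 2 in males at an unadjusted p under 0.05). Cyp2a22 and Cyp2a5 are relatives of the Cyp2a group, and the male values were 0.11 (FDR 0.912) and 0.11 (FDR 0.914).

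Lists of other sex-biased liver genes were set beside the family. Over all genes 31.8% passed with age in females, 3.69% with age in males, 5.25% with HDM201 in females and 0.00709% with HDM201 in males. Of 30 female-biased genes tested in females, 16 rose and 7 fell with age, with a median log2 fold change of 0.56. The largest called changes were the rises of A1bg (4.22 ± 0.64, edgeR FDR 5.69e-04), Cyp3a41b (3.77 ± 0.48, FDR 1.72e-04) and the sulfotransferase Sult2a2 (3.62 ± 0.30, FDR 1.25e-05) and the fall of Sult3a1 (−3.96 ± 0.41, FDR 5.60e-05). Cyp2b9 and Cyp2b13 also fell. In males 20 were tested, and Ntrk2 rose (3.45 ± 0.62, FDR 0.0197) and Cyp4a10 fell (−1.78 ± 0.40, FDR 0.0413). Of 21 male-biased genes tested in females, 11 fell and 2 rose with age, among them Hsd3b5 (−5.84 ± 0.90, FDR 6.30e-04) and the transporter Slco1a1 (−4.28 ± 0.30, FDR 4.82e-06). In males 2 of 28 rose, Gstp2 (2.48 ± 0.44, FDR 0.0186) and Mup20 (0.95 ± 0.23, FDR 0.0496). Under HDM201, 4 of 29 female-biased genes rose and 2 fell in old females, and 0 of 20 passed in old males by edgeR (5 at an unadjusted p under 0.05). Of the male-biased genes 1 of 20, C6, fell in old females (−1.01 ± 0.19, FDR 0.0170) and 0 of 28 passed in old males by edgeR (3 at an unadjusted p under 0.05).

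Of 22 genes of growth hormone and sex hormone signalling, 5 rose and 1 fell in old against young females. Over all genes 31.8% passed there, so the list held no excess of calls. Among those that rose were Stat5a at 0.80 ± 0.12 (edgeR FDR 6.79e-04) and Stat3 at 0.70 ± 0.09 (FDR 1.60e-04). Socs3, a feedback inhibitor of cytokine receptors, was at 0.91 ± 0.22 (FDR 0.00720). In males 0 of 22 passed by edgeR (2 at an unadjusted p under 0.05), where 3.69% of all genes passed. Stat5b, the main transducer of male-pattern growth hormone, had 0.16 (FDR 0.223) in old females and 0.25 (FDR 0.450) in old males. The receptor Ghr had −0.23 (FDR 0.193) and −0.01 (FDR 0.964), Bcl6 −0.24 (FDR 0.632) and 0.79 (FDR 0.473), and the female-specific repressor Cux2 0.19 (FDR 0.688) and 0.65 (FDR 0.694). Cish, a target of STAT5, was the single gene that passed under HDM201 in old males, from 32.7 ± 10.3 to 9.40 ± 1.74 CPM (−1.79 ± 0.20, edgeR FDR 0.0350). In old females Cish had 0.56 (FDR 0.207), and the interaction of sex and HDM201 was 2.36 ± 0.35 (FDR 0.0400). With single mice left out, 0 to 13 genes passed for HDM201 in old males and 0 to 314 for the interaction. Both Cish calls were therefore lost in some of these fits. Cyp2b levels of the same old males did not pass, as given above.

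Some marker genes of cell types and liver zones also passed the FDR of 0.05 with age or HDM201. Over all genes 31.8% passed with age in females, 3.69% with age in males and 5.25% with HDM201 in females. Of 15 pericentral hepatocyte genes, which mark the zone where P450 genes are strongest, 9 fell and 1 rose in old females, and their summed level was 8293 to 12180 CPM in young, 5094 to 6390 in old vehicle and 6164 to 7434 in old HDM201 females. In males 1 of 15, Oat, fell (−1.06 ± 0.24, edgeR FDR 0.0411), and the sum was 7620 to 12373 CPM in young and 6028 to 8930 in old vehicle mice. Of 13 macrophage and Kupffer cell markers, 12 rose in old females (330 to 482 CPM summed in young, 534 to 1096 in old vehicle females) and 4 rose in old males (150 to 304 CPM and 240 to 703 CPM), while 11 fell with HDM201 in old females (329 to 531 CPM). Of 8 cholangiocyte markers 6 were tested, of which 3 rose in old and 2 under HDM201 in females. Spp1 rose in old males (0.96 ± 0.16, edgeR FDR 0.0152). Of 13 endothelial and stellate cell markers, 3 rose and 2 fell in old females, 1 fell under HDM201 and Des rose in old males (0.86 ± 0.18, edgeR FDR 0.0342). Of 10 keratinocyte markers 2 were tested, and Lor rose in old females (1.02 ± 0.29, edgeR FDR 0.0167), at a summed level of all 10 of at most 4.87 CPM in any mouse. Of 12 general hepatocyte markers, 1 rose and 2 fell in old females and 0 of 12 passed in old males by edgeR (4 at an unadjusted p under 0.05). Of 14 lipid droplet genes, 12 were tested with age in each sex. Of these 3 rose and 2 fell in old females, and 2 fell in old males. Under HDM201 in old females, 0 of 15 pericentral, 0 of 12 hepatocyte and 0 of 12 tested lipid droplet genes passed by edgeR. At an unadjusted edgeR p under 0.05 were 6, 2 and 4 of them. In old males 0 genes of the marker, zone and lipid droplet lists passed with HDM201, where 0.00709% of all genes passed. The part of these shifts in the Cyp2b differences was not tested.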

How the data were processed

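Bulk liver RNA-seq was used as deposited. According to the labels and methods, STAR (mm10), HTSeq and Cufflinks were used by the authors for alignment, gene counts and FPKM, and strand settings are not given in the sources used here. The deposited count table (27 mice, whole counts) was tested with edgeR 4.0.16 (R 4.3.3), with filterByExpr at 10 counts and a total of 15, TMM scaling and the quasi-likelihood test at a Benjamini-Hochberg FDR of 0.05, each comparison on its own groups. CPM is scaled by TMM. The deposited FPKM table by the authors (29 mice) gave shares within the family; its empty cells, 94.83% of which had a count of 0, were read as 0, and its columns sum to 690769 to 6010507. No count column of the table was left unused, and no count columns were identical.

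Members and gene lists were chosen with earlier results of these data known, so no list count is independent support. Named genes were the members, for each expressed member the 5 genes with the highest Pearson r among genes with a mean of at least 1 CPM, up to 4 called genes per list and comparison with the largest log2 fold change, and 10 regulators fixed by name (Nr1i3, Nr1i2, Por, Rxra, Cyp2c55, Cish, Cux2, Bcl6, Ghr, Stat5b). The lists covered CAR and PXR partners, CAR-inducible genes, female-biased and male-biased genes, growth hormone and sex hormone signalling, Cyp2 neighbours, pericentral genes, lipid droplets and markers of hepatocytes, keratinocytes, cholangiocytes, macrophages and endothelial or stellate cells. Sex labels were checked with Xist and Y-linked genes and fitted in all 27 mice with counts. Tests on few values were exact permutation tests (scipy 1.17.1), and identities were aligned with Biopython 1.88. Alternatives were other size factors, no filter, 1 fit of all groups, a replicate block, DESeq2 1.42.0, limma 3.58.1 on log2(FPKM + 1) and leaving out each mouse, also for ratios of mean CPM (added after the values were seen). Each library is a separate mouse. The fit was tested on data simulated for HDM201 against vehicle in old females only. That setting does not cover groups without counts or the wide spread of Cyp2b9 and Cyp2b13 in males. According to the methods, 1 young male was excluded for an open wound and suspected infection, without saying which.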

Additional observations from a re-analysis of the deposited data

Results flagged for a closer look

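For 3 members the effect of age differed between the sexes by the interaction test of edgeR over the vehicle mice. This test uses the same sex differences for which the family was chosen and is therefore no independent evidence. For Cyp2b9 the female minus male log2 fold change was −4.59 (FDR 0.0141), with all 4 old females below all young females and all 4 old males above all young males. For Cyp2b10 it was 2.70 (FDR 0.00112), with the opposite order in both sexes. For Cyp2b13 the fitted value was −11.68 (FDR 0.00158), which depends on the prior count because no young male had a count and is no measure of size. Age is tied to substrain in both sexes and old males were older than old females, so these cannot be told apart. Dixon's criterion flagged no mouse in the 17 groups of 4 or more mice examined for the 3 expressed members. The criterion has little power in groups this small, so it does not show that single mice had no influence. Among young males, replicate 1 held 79 of the 97 counts of Cyp2b9.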

How the results depend on the processing

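Across the values reported here, 160 of 188 recomputed under other settings kept their direction and side of the threshold or stayed within the spread, 22 moved and 6 lost their call. With 1 mouse left out, 515 of 580 did so, 48 moved, 9 lost their call and 8 changed direction; ratios of mean CPM without each mouse were added after the data had been seen. Calls lost were Cyp2b9 in old females with all 6 groups in 1 fit (log2 fold change −0.43), Cyp2b9 in old males with DESeq2 (4.10) or limma on FPKM (2.74), and Cyp2b13 in old males with limma on FPKM (1.26); the cause was not tested. Replicate numbers did not pair mice (correlations of same-numbered deviations between −0.23 and 0.24); with the replicate block, old males lost the calls of Cyp2b9 (6.49) and Cyp2b13 (8.91), no other member call changed, and called genes were 366 for HDM201 in females, 29 for age in males, 0 for sex by HDM201 and 183 for sex by age. Called genes otherwise moved from 758 to 208 (all groups in 1 fit), 1330 (DESeq2) and 170 (limma) for HDM201 in females; from 1 to 22 (no filter), 6, 151 and 0 for HDM201 in males, where 1710 genes had an unadjusted p under 0.05; from 507 to 968 (no filter), 2007, 1318 and 155 for age in males; from 16 to 122 (no filter), 643 (DESeq2) and 1 (limma) for sex by HDM201; and from 577 to 1127 (DESeq2) for sex by age. With a pseudocount of 0.1 in place of 1 the young sex difference was 9.85 for Cyp2b9 and 11.61 for Cyp2b13 on the log2 scale, and 7.21 for Cyp2b13 on FPKM. Leaving out 1 mouse gave 3.37 to 6.28 for Cyp2b9 and 8.50 to 9.33 (fitted) for Cyp2b13 with age in males, −1.09 to 0.45 for Cyp2b9 and −0.38 to 0.52 for Cyp2b13 with HDM201 in males, −0.64 to 0.90 for Cyp2b9 in sex by HDM201, and called genes of 185 to 956, 0 to 13, 144 to 579, 0 to 314 and 207 to 1193 in the order of the comparisons above. Among these, the lowest came without old vehicle female replicate 2 (185), old vehicle male replicate 4 (144) and old vehicle female replicate 4 (207). Depth limits Cyp2b19, Cyp2b23 and, in young males, Cyp2b9 and Cyp2b13.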
